A study of Mus musculus with 9 samples.

Results

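The respiratory chain genes carried in the nucleus were followed through adipocyte differentiation of 3T3-L1 cells with and without lysine. Members were the protein-coding rows of the gene count table whose symbol began with Nduf, Uqcr, Cox4 to Cox8 or Atp5, together with Cyc1 and Cycs, and none of them lay on the mitochondrial chromosome. The rule found 92 genes among 54532 rows, of which 22046 were protein-coding. They comprised 36 subunits of complex I, 8 complex I assembly factors of the Ndufaf series, 9 genes of complex III, 1 gene for cytochrome c, 20 of complex IV and 18 of the ATP synthase. Matching symbols were also carried by 13 rows that were not protein-coding, and these were left out.

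The respiratory chain moves electrons from NADH and reduced flavins to oxygen and pumps protons across the inner mitochondrial membrane, and the ATP synthase lets the protons back to make ATP. Complex I takes electrons from NADH, complex III passes them from ubiquinol to cytochrome c, and complex IV hands them to oxygen. A few subunits are encoded by mitochondrial DNA and all others by nuclear genes, and several complex IV and ATP synthase positions can be filled by alternative isoforms, some of them named for heart and muscle. Mitochondria multiply when preadipocytes become fat cells, where they supply acetyl groups and ATP for making lipid.

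3T3-L1 is a mouse fibroblast line that turns into adipocytes when stimulated. All cells were kept at confluence for 3 days. The Undifferentiated group was the control without stimulation, and the Differentiated group was then given 1 µM dexamethasone, 0.5 mM 3-isobutyl-1-methylxanthine, 1 µM rosiglitazone and 10 µg/mL insulin. The Lysfree group received the same hormone mixture in medium that lacked lysine. The methods name fetal bovine serum as a part of the differentiation medium, and another serum (BCS) and another DMEM for the culture before it. In comparisons with Undifferentiated, the hormones and such differences of medium cannot be told apart. Each group held 3 poly(A)-selected RNA libraries of a single cell line. Nothing in the labels says that they came from separate cultures, so the p-values measure the spread between these libraries, which may be technical.

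Assigned counts ran from 15880144 to 21806693 per library. Summed over 8 adipocyte marker genes, the level was 1915 to 2161 CPM (counts scaled to the library total) in Undifferentiated, 20884 to 22032 in Differentiated and 2053 to 2832 in Lysfree. Summed over 7 preadipocyte or fibroblast markers it was 14402 to 15933, 2732 to 2831 and 3628 to 4087 CPM in the same order. Of the 8 adipocyte markers, 7 were called higher and 1 lower in Differentiated than in Undifferentiated. In Lysfree, 1 (Lpl) was called higher and 5 (Adipoq, Cidec, Plin1, Cfd and Retn) lower than in Undifferentiated, and Lep had 0 counts. Lpl made up most of the summed adipocyte level in Undifferentiated and in Lysfree, at 145 to 147 and 162 to 238 FPKM. Of the 7 preadipocyte or fibroblast markers, all were called lower in Differentiated than in Undifferentiated, while in Lysfree 2 (Ly6a and Thy1) were called higher and 5 lower than in Undifferentiated and 5 higher than in Differentiated. Most of that summed level was Col1a1, at 1766 to 1977 FPKM in Undifferentiated. Of 7 brown or beige fat markers, Ucp1 and Zic1 had 0 counts in all 9 libraries. Ppara, Elovl3 and Prdm16 were called higher in Differentiated than in both other groups, at levels under 1 FPKM, Prdm16 on 2, 9 and 1 counts. Dio2 was called in no comparison. Cidea had 0, 5 and 1 counts in Undifferentiated and 0 in all Differentiated and Lysfree libraries, and its fall with differentiation was not called. Summed over the 7 they were at 0.237 to 1.10 CPM in Undifferentiated, 2.37 to 3.64 in Differentiated and 0.843 to 1.13 in Lysfree. Of 10 muscle markers, Myh2 and Myh4 had 0 counts in all 9 libraries, none was called higher in any comparison, and Actn3 was at 3.11 to 3.58 FPKM in Undifferentiated and called lower in both other groups. The part of these cell type markers in the results on the members was not tested. Lysfree library 1 stood apart from libraries 2 and 3 of its group, most of all for short genes, and the main counts that use it are given with and without it.

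Bases upstream of 4 members are printed here, because Cycs and Cox7a1 had the 2 largest rises with differentiation and because Atp5g1 and Atp5g3 encode the same mature c subunit of the ATP synthase and had different log2 changes in Lysfree. Each stretch holds 110 bases read 5′ to 3′ on the gene's own strand and ends outside the gene's span in the count table (RefSeq promoter windows, build GRCm38.p6). Capitals mark a match to one of 4 motifs, GCGCATGC (Nrf1), CCGGAAG (Ets family and Gabpa), TCAAGGTCA (Esrr family) and AAGATGGC (Yy1), searched on both strands. Cycs is at chr6:50566570-50566679 on the minus strand, Cox7a1 at chr7:30184034-30184143 on the plus strand, Atp5g1 at chr11:96075671-96075780 on the minus strand and Atp5g3 at chr2:73911327-73911436 on the minus strand.
Cycs: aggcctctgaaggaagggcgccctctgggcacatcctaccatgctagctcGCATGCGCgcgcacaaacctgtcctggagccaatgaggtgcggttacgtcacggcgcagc
Cox7a1: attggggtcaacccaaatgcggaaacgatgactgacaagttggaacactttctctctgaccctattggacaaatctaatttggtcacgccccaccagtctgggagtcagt
Atp5g1: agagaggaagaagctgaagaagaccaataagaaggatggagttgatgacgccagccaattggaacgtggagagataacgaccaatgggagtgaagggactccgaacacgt
Atp5g3: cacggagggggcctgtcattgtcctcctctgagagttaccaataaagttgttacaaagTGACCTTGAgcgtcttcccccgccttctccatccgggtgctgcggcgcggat

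The capitals of Cycs lie 60 to 53 bases before the RefSeq start and match the Nrf1 letters on the opposite strand. Those of Atp5g3 lie 52 to 44 bases before the start and match the Esrr letters on the opposite strand. The printed stretches of Cox7a1 and Atp5g1 held none of the 4 motifs. Whole windows of 300 bases, 250 before and 50 after the start, could be matched for 75 of the 92 members. These genes had 80 windows, with the window of Atp5o counted for both of its entries. The Nrf1 motif was found in 12 of the 75 genes (16%). By window it was in 15%, against 2.71% of all 32851 promoter windows and 5.42% of windows of genes with a mean of at least 1 CPM. The Yy1 motif was found in 11 genes (14.7%) and 13.75% of member windows, against 4.56% of windows of genes at that level. The Ets motif was found in 16 genes (21.3%) and 20% of member windows, against 18.1%. Of the 75 genes, 1 (Atp5g3) held the Esrr motif, which 0.423% of all windows carried. Among the tested members, the median log2 change from Undifferentiated to Differentiated was 1.29 for the 12 genes with the Nrf1 motif and 1.20 for the 61 without it. The same medians were 1.11 and 1.29 for the Ets motif and 0.93 and 1.29 for the Yy1 motif. A match is a run of letters and was not tested as a binding site.

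Most of these genes were higher after differentiation. Of the 89 members with a count in the libraries compared, 77 were called higher in Differentiated than in Undifferentiated (edgeR quasi-likelihood test, Benjamini-Hochberg adjusted p under 0.05) and 3 were called lower. Over all 24402 genes tested, 23.0% were called higher and 23.2% lower. A change of at least 2-fold, the DEG criterion, was met by 56 members upward and 2 downward, against 10.4% and 11.4% of all genes. The median log2 fold change was 1.21 for the members and 0.02 for all genes tested. Protein-coding genes with a mean of at least 1 CPM were called higher in 39.7%, and those among them no longer than the median member in 45.9%. The members took 0.678 to 0.841% of all counts in Undifferentiated and 1.83 to 1.93% in Differentiated. In bulk RNA, fewer cells of a type and less RNA per cell cannot be told apart.

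**Figure D1:**
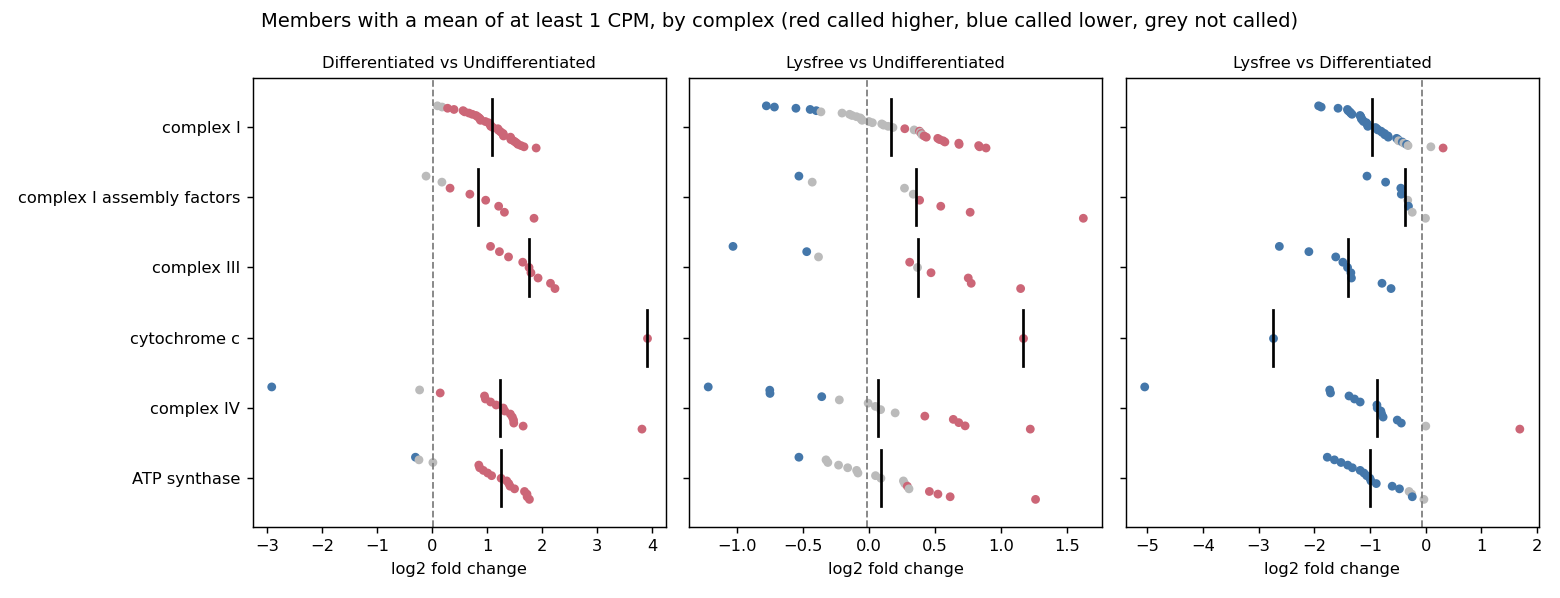
Each point is a member with a mean of at least 1 CPM, placed by its log2 fold change (edgeR) in 1 of the 3 comparisons and by complex, with red for called higher, blue for called lower and grey for not called. The black bar is the median over the tested members of a complex and the dashed line the median over all genes tested; nearly all points lie right of that line in the left panel and left of it in the right panel, with Ndufa4l2 at -2.92 and 1.69 on the other side.

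Complex III and cytochrome c changed most. All 9 genes of complex III met the DEG criterion upward, with a median log2 change of 1.76 and a range from 1.06 (Uqcrh) to 2.23 (Cyc1). Cycs encodes cytochrome c, the small carrier between complexes III and IV. It stood at 14.5, 18.8 and 15.4 FPKM (fragments scaled for gene length and library size) in Undifferentiated and at 240.3, 240.7 and 259 FPKM in Differentiated. The groups were far apart, and the log2 fold change was 3.90 ± 0.06 (SE), a 14.9-fold rise. Its gene spans chr6:50562563-50566538 (mm10, minus strand).

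Cyc1, the cytochrome c1 heme subunit of complex III, measured 57.2, 71.6 and 60.5 FPKM before and 309, 293 and 304 FPKM after differentiation. The log2 change of Cyc1 was 2.23 ± 0.05. Uqcrfs1, the Rieske iron-sulfur protein, went from 52.7, 60.9 and 55.9 to 262, 245 and 259 FPKM, a log2 change of 2.15 ± 0.06. In both genes every Differentiated library lay above every Undifferentiated library. The core proteins Uqcrc1 and Uqcrc2 rose by 1.64 ± 0.05 and 1.92 ± 0.06 on the log2 scale.

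In complex I, 34 of 36 subunits were called higher and none lower, and 22 met the DEG criterion. The median was 1.08. Of the 7 core subunits, which carry the flavin and the iron-sulfur clusters, all were called higher, from 0.73 ± 0.07 (Ndufs8) to 1.54 ± 0.06 (Ndufs1). Ndufs1 is the largest subunit of the NADH-oxidising arm. It stood at 10.7, 11.6 and 11.2 FPKM in Undifferentiated and 33.7, 32.9 and 32.7 FPKM in Differentiated. Ndufv1, which binds NADH and flavin, rose by 1.43 ± 0.06, and its partner Ndufv2 by 1.51 ± 0.06. Ndufa7 and Ndufb2 were the 2 subunits not called, at 0.09 ± 0.07 and 0.18 ± 0.12 (adjusted p = 0.27 and 0.25). Among the 8 assembly factors, which help build complex I and are not part of it, 6 were called higher and 3 were DEGs. Ndufaf4 rose by 1.85 ± 0.08, and Ndufaf8 and Ndufaf3 were not called, at -0.11 ± 0.13 and 0.17 ± 0.12.

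In the ATP synthase, 14 of 17 tested genes were called higher, 11 of them DEGs, with a median of 1.25. The catalytic head genes Atp5a1, Atp5b and Atp5c1 rose by 1.39 ± 0.05, 1.76 ± 0.05 and 1.01 ± 0.05. Atp5b, which carries the catalytic sites, went from 178, 218 and 185 to 676, 659 and 678 FPKM. Atp5e, the small epsilon subunit of the same head, was called lower, and its values of 15.8, 22.5 and 17.5 against 16.0, 14.1 and 16.1 FPKM overlapped. The log2 change of Atp5e was -0.31 ± 0.09 (edgeR adjusted p = 0.00095), and without Undifferentiated library 2 it was -0.13 and not called. Without that library only 1 member, Ndufa4l2, was called lower. Atp5s, a coupling factor of the ATP synthase, was not called at -0.24 ± 0.14 (adjusted p = 0.14).

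In complex IV, 13 of 18 tested genes were called higher, 10 of them DEGs, and 2 were called lower, with a median of 1.22. Cox5a and Cox5b, which have no isoform gene here, rose by 1.65 ± 0.07 and 1.48 ± 0.06. Cox4i1, the common isoform of the largest nuclear subunit, went from 114, 158 and 131 to 271, 256 and 274 FPKM. The groups did not overlap, and the log2 change was 0.97 ± 0.05.

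**Figure D2:**
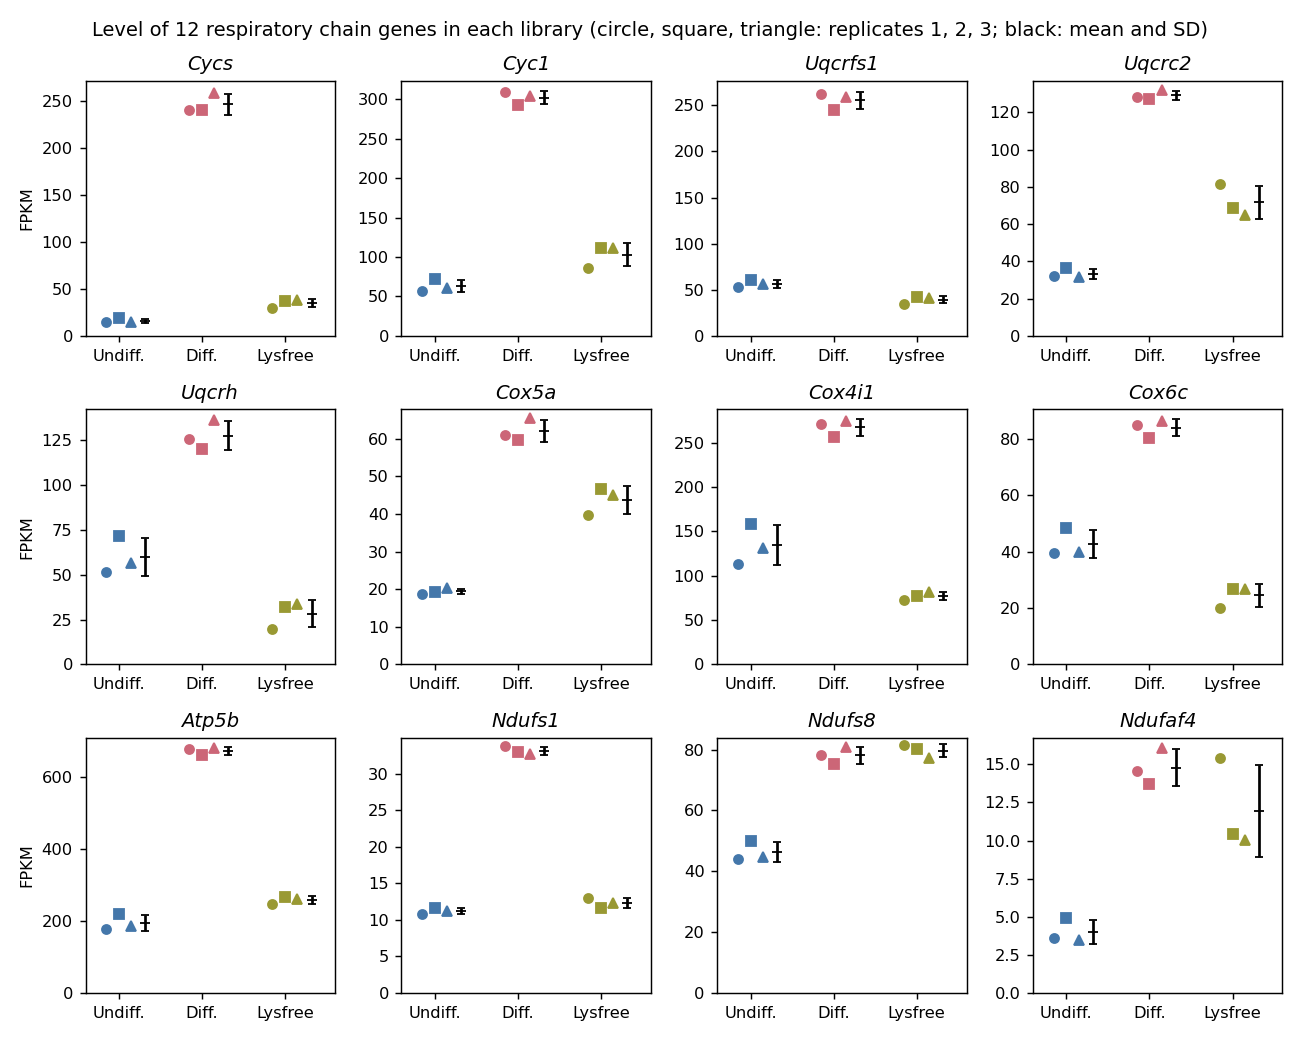
FPKM of 12 members in each of the 9 libraries, 1 panel a gene, with the axis from 0, symbols for replicates and a black bar for the group mean and SD. Cycs, Cyc1 and Uqcrfs1 are high in the 3 Differentiated libraries alone; Ndufs8 is at 77.3 to 81.6 FPKM in Lysfree and at 75.3 to 80.8 FPKM in Differentiated.

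Most members were lower in Lysfree than in Differentiated. In Lysfree against Differentiated, 73 of 89 tested members were called lower and 2 higher, with 42 DEGs lower and 1 higher. Over all 24130 genes tested, 18.8% were called lower and 19.7% higher, and 10.5% were DEGs lower and 8.14% DEGs higher. The share called lower was 84.9% among members with a mean of at least 1 CPM. It was 31.2% among all protein-coding genes at that level and 43.2% among those no longer than the median member. The median log2 change was -0.98 for the members and -0.06 for all genes. Without Lysfree library 1, 78 members were called lower and 4 higher, 35 were DEGs lower, and the median was -0.90. Leaving out Differentiated library 2 or Lysfree library 2 left 1 member called higher. The members took 0.784, 0.962 and 0.965% of counts in the 3 Lysfree libraries.

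Gene length moved with the values of Lysfree library 1. The median gene length was 1560 bases for the members and 3422 bases for all protein-coding rows. Among genes with a mean of at least 10 CPM, 17 of 81 members (21%) were more than 2-fold lower in Lysfree library 1 than in the mean of libraries 2 and 3, against 1.90% of 9042 other protein-coding genes. Of the 18 members under 1000 bases, 9 were that low, with a median log2 ratio of -1.03. Other protein-coding genes under 1000 bases had a median of -0.50. Of the 31 members of 2000 bases or more, 1 was that low. Atp5k, a small membrane subunit of the ATP synthase chosen after its values were seen, stood at 2.03 FPKM in library 1 and at 45.0 and 48.1 FPKM in libraries 2 and 3. Short protein-coding genes with a mean of at least 1 CPM, up to the median member length, had a median log2 change of -0.25 in Lysfree against Differentiated, and -0.19 without library 1. The part of gene length or of library 1 in single members was not tested beyond these values.

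**Figure D3:**
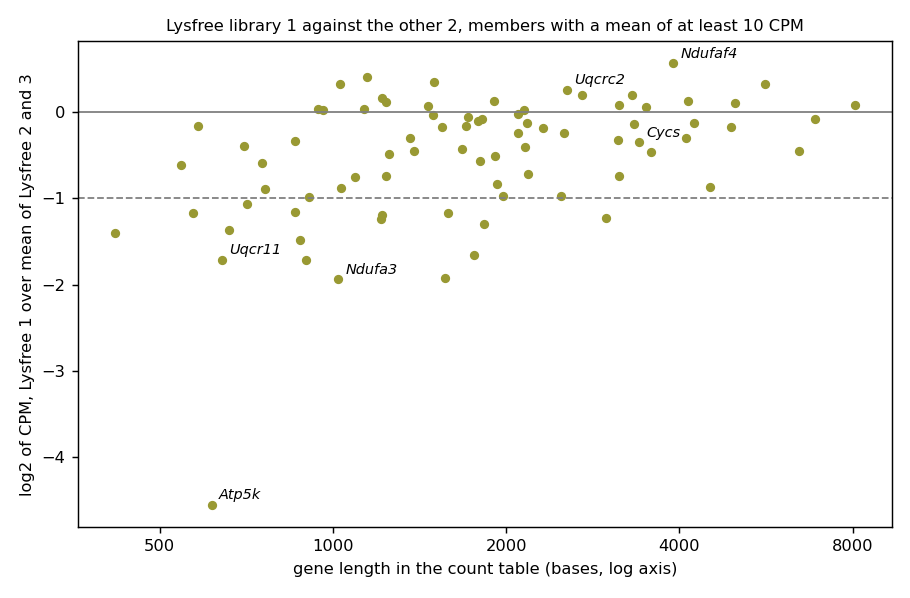
Each point is a member with a mean of at least 10 CPM. The horizontal axis is gene length in bases on a log scale and the vertical axis the log2 ratio of its CPM in Lysfree library 1 to the mean of libraries 2 and 3, with a dashed line at -1. Of the 17 points below the dashed line 1 is a gene of 2000 bases or more, and Atp5k is lowest; Ndufaf4 and Uqcrc2 lie above 0.

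After Cox7a1, a scarce gene, Cycs and Uqcrfs1 had the largest falls. Cycs stood at 30.2, 37.4 and 38.0 FPKM in Lysfree, under the Differentiated libraries and above all Undifferentiated ones. Its log2 change was -2.74 ± 0.10 against Differentiated and 1.17 ± 0.12 against Undifferentiated. Uqcrfs1 stood at 34.7, 42.1 and 41.4 FPKM, below every library of both other groups. The log2 changes of Uqcrfs1 were -2.63 ± 0.10 against Differentiated and -0.47 ± 0.11 against Undifferentiated (edgeR adjusted p = 9.1e-15 and 0.00077). All 9 complex III genes were called lower than in Differentiated, 7 of them DEGs, with a median of -1.40, and the counts were the same without library 1.

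In complex I, 31 of 36 subunits were called lower than in Differentiated and 18 were DEGs, with a median of -0.97. Without library 1, 33 were called lower and 14 were DEGs. Ndufb10, an accessory subunit of the membrane arm, fell furthest, from 146, 122 and 134 FPKM to 18.4, 39.8 and 42.6 FPKM. No libraries overlapped, and the log2 change was -1.92 ± 0.19, or -1.65 without Lysfree library 1. Core subunit Ndufv2 fell by 1.58 ± 0.09 on the log2 scale. Ndufs8, a core subunit that binds iron-sulfur clusters, was the exception among the 7 core genes. It stood at 81.6, 80.2 and 77.3 FPKM in Lysfree, among the Differentiated values of 78.4, 75.3 and 80.8 FPKM and above the Undifferentiated values of 44.2, 50.1 and 44.7 FPKM. The log2 change of Ndufs8 was 0.09 ± 0.09 against Differentiated (adjusted p = 0.49) and 0.83 ± 0.11 against Undifferentiated (adjusted p = 9.4e-08).

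Ndufa7, an accessory subunit, was called higher in Lysfree than in both other groups. Its levels were 45.0, 49.9 and 48.9 FPKM in Lysfree, 42.3, 37.9 and 41.1 FPKM in Differentiated and 33.2, 41.4 and 36.7 FPKM in Undifferentiated. The Lysfree libraries lay above all others, with log2 changes of 0.31 ± 0.10 and 0.42 ± 0.11 (edgeR adjusted p = 0.013 and 0.0022). The call against Differentiated was lost without Differentiated library 2, at 0.27, and without Lysfree library 2, at 0.28.

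Of the assembly factors, 5 of 8 were called lower in Lysfree than in Differentiated and 1 was a DEG, Ndufaf1 at -1.06 ± 0.12. Without library 1, 6 were called lower and 1 higher. Ndufaf4 was not called at -0.24 ± 0.13 (adjusted p = 0.18). It stood at 15.4, 10.4 and 10.0 FPKM in Lysfree, with library 1 within the Differentiated values of 14.5, 13.7 and 16.1 FPKM and libraries 2 and 3 below them. Without Lysfree library 1 the change was -0.48 and was called. Ndufaf2, which was at -0.00 ± 0.22, turned to 0.27 and was called higher without that library, and Atp5e likewise went from -0.03 ± 0.25 to 0.31. In the ATP synthase 14 of 17 tested genes were called lower and 9 were DEGs. Without library 1, 16 were called lower and 6 were DEGs. In complex IV 13 of 18 were called lower, 6 of them DEGs, and 1 higher, and these counts were the same without library 1.

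Against Undifferentiated, members in Lysfree were called in both directions. Of 89 tested, 34 were called higher and 14 lower, and 5 and 3 were DEGs. Over all 23994 genes tested, 18.0% were called higher and 17.1% lower, and 5.52% and 8.76% were DEGs. The members' shares called lower (15.7%) and DEG higher (5.62%) were near those of all genes. The share of members called higher was 40.0% among those with a mean of at least 1 CPM, against 33.6% of all protein-coding genes at that level and 25.5% of those no longer than the median member. The share called lower was 15.3% of members at that level, against 28.6% and 31.1%. The median log2 change was 0.20 for the members and -0.02 for all genes. Without Lysfree library 1, 49 members were called higher and 17 lower. Without Undifferentiated library 3 the counts were 22 and 9, and without Undifferentiated library 2, 9 were called lower. Members with a mean of at least 10 CPM mostly read higher in Undifferentiated library 2 than in libraries 1 and 3, short or long. Their median log2 ratio was 0.38 under 1000 bases and 0.19 at 2000 bases or more, against 0.28 and -0.03 for other protein-coding genes. Of the adipocyte markers, Fabp4, Adipoq, Cidec, Cfd, Retn and Plin1 were also highest there, and Lpl by little. Fabp4 was at 58.6 FPKM against 33.0 and 40.8 FPKM, and Adipoq at 74.1 FPKM against 47.3 and 52.0 FPKM. Lep was near the floor, with 6, 0 and 2 counts in Undifferentiated libraries 1, 2 and 3. The part of gene length or of these markers was not tested.

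The 5 genes more than 2-fold higher sat in different parts of the chain. Ndufaf4, a complex I assembly factor, had the largest rise at 1.62 ± 0.15. Cox5a, a subunit of complex IV, went from 18.7, 19.3 and 20.2 FPKM in Undifferentiated to 39.6, 46.6 and 45.0 FPKM in Lysfree. The log2 change of Cox5a was 1.22 ± 0.11 (edgeR adjusted p = 3.6e-11), and its Differentiated level was higher still, at 61.0, 59.6 and 65.4 FPKM. Uqcrc2 stood at 81.5, 68.8 and 64.8 FPKM in Lysfree against 32.4, 36.4 and 31.4 FPKM in Undifferentiated, a log2 change of 1.15 ± 0.11. Cycs and Atp5g1 were the other 2, and these 5 genes were DEGs also without Lysfree library 1.

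Among the genes below Undifferentiated, Uqcrh, the hinge protein of complex III, stood at 51.4, 71.5 and 56.7 FPKM in Undifferentiated and at 19.9, 31.7 and 33.4 FPKM in Lysfree. The log2 change of Uqcrh was -1.03 ± 0.15, and -0.86 without library 1. Cox4i1 was at 72.3, 77.4 and 82.2 FPKM in Lysfree, under all Undifferentiated libraries, with a log2 change of -0.75 ± 0.11. Cox6c, a small complex IV subunit, was at 19.9, 26.7 and 26.8 FPKM against 39.6, 48.4 and 39.8 FPKM, a log2 change of -0.75 ± 0.12. In all 3 genes the Lysfree values lay below those of both other groups. Ndufa3 was called lower at -0.78 ± 0.24 with values that overlapped, 7.68 FPKM in library 1 and 26.7 and 31.0 FPKM in libraries 2 and 3 against 29.9 to 49.4 FPKM. Without library 1 Ndufa3 was at -0.41 and still called lower, but the call was lost with DESeq2, at -0.81, with limma and without Undifferentiated library 3. Subunits of the same complex thus had called changes of opposite sign in this comparison: Cox5a 1.22 and Cox4i1 -0.75 in complex IV, Uqcrc2 1.15 and Uqcrh -1.03 in complex III. The difference between such genes was not itself tested.

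The c ring of the ATP synthase is built from a subunit that 3 genes encode with different targeting peptides. Atp5g1 measured 8.89, 10.0 and 10.1 FPKM in Undifferentiated, 32.7, 30.5 and 34.4 FPKM in Differentiated and 20.9, 23.3 and 23.1 FPKM in Lysfree. Atp5g3 measured 91.5, 111 and 102 FPKM, then 343, 328 and 354 FPKM, then 74.6, 121 and 119 FPKM. Atp5g2 measured 131, 152 and 137 FPKM, then 149, 142 and 141 FPKM, then 95.5, 124 and 127 FPKM. With differentiation Atp5g1 and Atp5g3 rose by 1.72 ± 0.06 and 1.72 ± 0.05 on the log2 scale, and Atp5g2 did not pass the test at 0.01 ± 0.05 (adjusted p = 0.89).

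In Lysfree the c-ring genes parted. Against Undifferentiated, Atp5g1 was higher by 1.26 ± 0.11, and Atp5g3 was not called at 0.09 ± 0.13, or 0.26 and called without library 1. Atp5g2 was at -0.23 ± 0.11 (adjusted p = 0.1), or -0.14 and called lower without library 1. Against Differentiated the log2 changes were -0.47 ± 0.09 for Atp5g1, -0.25 ± 0.10 for Atp5g2 (adjusted p = 0.06, called at -0.15 without library 1) and -1.64 ± 0.13 for Atp5g3. The share of Atp5g2 in the summed FPKM of the 3 genes was 55.0 to 56.6% in Undifferentiated, 26.6 to 28.4% in Differentiated and 46.2 to 50.0% in Lysfree. The share of Atp5g3 was 39.6 to 41.0%, 65.4 to 66.9% and 39.1 to 45.1%, and that of Atp5g1 was 3.67 to 4.05%, 6.10 to 6.50% and 8.60 to 11.0%. Each of these shares had groups that did not overlap, except Atp5g3 between Lysfree and Undifferentiated. An exact two-sided permutation test of 3 against 3 libraries cannot go below p = 0.1, which each comparison without overlap reached (adjusted p = 0.16 over the 48 share tests run).

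**Figure D4:**
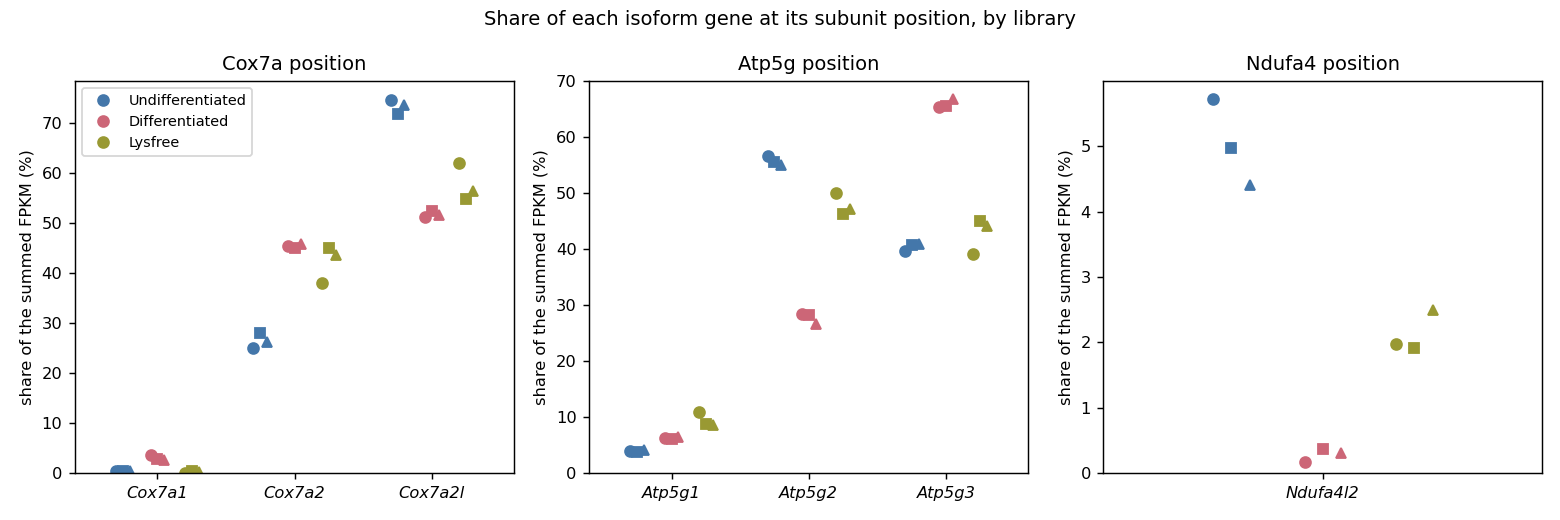
Share in percent of each isoform gene in the summed FPKM of its subunit position, for the Cox7a, Atp5g and Ndufa4 positions, with 1 symbol a library and colour for the group. Atp5g2 and Atp5g3 change places between Undifferentiated and Differentiated, and Ndufa4l2 takes 4.41 to 5.72% in Undifferentiated, 0.165 to 0.359% in Differentiated and 1.92 to 2.50% in Lysfree.

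Cox7a1 is the isoform of complex IV subunit 7a found in heart, muscle and brown fat. It stood at 0.614, 0.682 and 0.700 FPKM in Undifferentiated and 11.6, 8.73 and 8.68 FPKM in Differentiated, and at 0, 0.588 and 0.193 FPKM in Lysfree, where the 3 libraries held 0, 6 and 2 counts. The Differentiated libraries stood alone, with a log2 change of 3.81 ± 0.31 against Undifferentiated and -5.05 ± 0.44 against Differentiated for Lysfree. By counts alone the CPM in Lysfree was 0.0306 times that in Differentiated (95% exact interval 0.0131 to 0.0612, for counting error only). Even in Differentiated, Cox7a1 made up 2.65 to 3.52% of the FPKM at its position. Cox7a2 rose by 1.42 ± 0.06 with differentiation, and Cox7a2l, a related protein that joins complexes III and IV into supercomplexes, by 0.14 ± 0.05. Shares at this position count Cox7a2l in the sum, where it took 71.7 to 74.6% in Undifferentiated, 51.2 to 52.3% in Differentiated and 54.8 to 62.0% in Lysfree. The share of Cox7a2 was 25.0 to 28.0% in Undifferentiated, 45.0 to 45.9% in Differentiated and 38.0 to 44.9% in Lysfree.

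Ndufa4l2, known as a hypoxia-induced relative of the complex IV subunit Ndufa4, had the largest fall of any member with a mean of at least 1 CPM from Undifferentiated to Differentiated, on few reads (6, 14 and 12 counts in the Differentiated libraries). It stood at 4.37, 4.83 and 3.76 FPKM in Undifferentiated, at 0.354, 0.686 and 0.678 FPKM in Differentiated and at 1.35, 1.77 and 2.26 FPKM in Lysfree. The 3 groups were apart from each other, with log2 changes of -2.92 ± 0.28 from Undifferentiated to Differentiated, -1.22 ± 0.25 from Undifferentiated to Lysfree and 1.69 ± 0.36 from Differentiated to Lysfree. Ndufa4 itself rose by 1.32 ± 0.06 with differentiation and had a log2 change of -1.28 ± 0.11 from Differentiated to Lysfree.

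The common isoforms of the other complex IV positions were among the most abundant members. Cox6a1 stood at 226 to 320 FPKM in Undifferentiated, 673 to 698 FPKM in Differentiated and 298 to 393 FPKM in Lysfree. Cox8a stood at 295 to 456 FPKM, 813 to 856 FPKM and 264 to 396 FPKM in the same order. With differentiation Cox6a1, Cox6b1, Cox7b and Cox8a rose by 1.29 ± 0.05, 1.48 ± 0.06, 1.45 ± 0.06 and 1.16 ± 0.05 on the log2 scale. From Differentiated to Lysfree all 4 were called lower, at -0.88 ± 0.10, -0.81 ± 0.17, -1.38 ± 0.20 and -1.18 ± 0.12. Against Undifferentiated, Cox6a1 and Cox6b1 were called higher in Lysfree at 0.42 ± 0.12 and 0.68 ± 0.16, and Cox7b and Cox8a were not called at 0.09 ± 0.18 and -0.01 ± 0.13, Cox7b being called at 0.36 without Lysfree library 1.

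Their alternative isoforms were scarce. Cox6a2, the muscle partner of Cox6a1, stood at 3.24 to 6.70 FPKM in Undifferentiated, 3.73 to 5.53 FPKM in Differentiated and 3.26 to 5.86 FPKM in Lysfree, and was called in none of the 3 comparisons. Cox8b, the heart and brown fat isoform of subunit 8, had 44 counts over the Undifferentiated libraries, 11 over Differentiated and 2 over Lysfree. Its CPM ratio was 0.283 in Differentiated against Undifferentiated (0.132 to 0.556) and 0.0507 in Lysfree against Undifferentiated (0.00596 to 0.194). Undifferentiated library 2 held 26 of the 44 counts, and without it, without Differentiated library 1, with DESeq2 or with limma the change from Undifferentiated to Differentiated was not called. Cox4i2 had at most 2 counts in any library and Cox6b2 at most 4. Cox7b2, Cox8c and a second Atp5o entry were at 0 in all 9 libraries, against a floor of 3 counts, or 0.138 to 0.189 CPM.

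Mitochondrial DNA encodes 13 further protein chains of these complexes. Their levels were very unequal, and the reason was not tested. Per library, mt-Atp8 had 0 to 9 counts, mt-Nd4l 15 to 34 and mt-Nd3 14 to 40. Mt-Co1 was at 2193 to 3888 FPKM and mt-Co2 at 31.7 to 66.8 FPKM. With differentiation 7 chains were called higher and 3 lower, none of them 2-fold, with a median log2 change of 0.34. Mt-Nd1, a core membrane subunit of complex I, rose by 0.96 ± 0.04, and mt-Nd4, another, was lower at -0.37 ± 0.05. Against Undifferentiated no chain was called in Lysfree, where their median was 0.02. Against Differentiated 4 were called lower in Lysfree and none higher, with mt-Nd1 at -1.08 ± 0.12. Of protein-coding genes with a mean of at least 1 CPM, 31.2% were called lower in that comparison and 36.1% higher. With differentiation 39.7% of such genes were called higher and 39.8% lower. Mitochondrial genes took 1.60% of counts in Lysfree library 1 and 0.879 and 0.906% in libraries 2 and 3. Without library 1, 8 chains were called lower than in Undifferentiated, with a median of -0.39, and 10 were called lower than in Differentiated, with a median of -0.48. Most mitochondrial mRNAs carry only short poly(A) tails, and these libraries were poly(A)-selected.

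Complex II and the enzymes that feed ubiquinone directly were a list of 9 genes outside the rule. With differentiation 8 were called higher, all DEGs, and 1 lower, with a median of 1.35. Sdha, the flavin subunit of succinate dehydrogenase, stood at 46.0, 53.8 and 48.5 FPKM in Undifferentiated, 129, 132 and 131 FPKM in Differentiated and 50.2, 55.3 and 57.0 FPKM in Lysfree. Gpd2, the mitochondrial glycerol phosphate dehydrogenase, was the gene called lower with differentiation, only just, at -0.18 ± 0.08 (edgeR adjusted p = 0.049). Gpd2 stood at 6.02, 5.44 and 5.85, then 4.96, 5.30 and 5.24, then 13.3, 10.4 and 10.3 FPKM. It was higher in Lysfree by 1.02 ± 0.12 than in Undifferentiated and by 1.19 ± 0.11 than in Differentiated. The other 8 were all called lower in Lysfree than in Differentiated, and 4 of the 9 were called higher and none lower than in Undifferentiated. Without library 1 these became 6 and 1. Of protein-coding genes with a mean of at least 1 CPM, 33.6% were called higher and 28.6% lower in Lysfree than in Undifferentiated. Against Differentiated 31.2% of such genes were called lower in Lysfree, and with differentiation 39.7% were called higher.

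Among 41 tested assembly factors that the rule did not take in, 30 were called higher and 5 lower with differentiation, with a median of 0.94. In Lysfree 23 were called lower and 3 higher than in Differentiated, with a median of -0.52, and 17 were called higher and 5 lower than in Undifferentiated. Without library 1 there were 28 lower and 3 higher than in Differentiated, and 19 higher and 7 lower than in Undifferentiated. Of protein-coding genes with a mean of at least 1 CPM, 39.7% were called higher and 39.8% lower with differentiation. In Lysfree 31.2% of such genes were called lower and 36.1% higher than in Differentiated, and 33.6% higher and 28.6% lower than in Undifferentiated. Hccs, the enzyme that attaches heme to cytochrome c, rose by 1.16 ± 0.06 with differentiation and was higher by 1.26 ± 0.12 in Lysfree than in Undifferentiated. It was picked from this list for its link to Cycs after its values were seen.

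Of 19 tested regulators of respiratory chain genes, 12 were called higher and 3 lower with differentiation. Ppargc1b, a coactivator of nuclear receptors that drives mitochondrial genes, stood at 0.729, 0.651 and 0.657 FPKM in Undifferentiated, 13.6, 13.9 and 12.6 FPKM in Differentiated and 0.784, 1.13 and 1.16 FPKM in Lysfree. Esrra, a nuclear receptor it works with, stood at 16.5, 19.4 and 16.1, then 42.6, 45.2 and 46.0, then 9.21, 17.5 and 17.8 FPKM. For both genes the Differentiated libraries lay above all others. Ppargc1a, the related coactivator, was highest in Lysfree, at 7.18, 5.03 and 5.04 FPKM against 2.14, 1.69 and 2.12 FPKM in Undifferentiated and 3.07, 3.01 and 2.96 FPKM in Differentiated. Nrf1, the factor whose motif was searched above, was not called with differentiation at 0.15 ± 0.08 (adjusted p = 0.15) and was higher in Lysfree by 0.91 ± 0.12 than in Undifferentiated and by 0.75 ± 0.11 than in Differentiated. Over the whole list, Lysfree had 12 genes called higher and 2 lower than Undifferentiated, and 7 higher and 7 lower than Differentiated. Without library 1 the last count was 10 lower. Of protein-coding genes with a mean of at least 1 CPM, 33.6% were called higher and 28.6% lower in Lysfree than in Undifferentiated. Against Differentiated these shares were 36.1% and 31.2%, and the 7 each way of 19 regulators were near them. With differentiation 39.7% of such genes were called higher and 39.8% lower.

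Some rows share sequence with others. Of the 92 members, 33 overlapped an exon of another gene, 6 of them on the same strand, and the strand setting of the counting is not given in the sources used here. Processed pseudogene rows carried up to 401 counts for Ndufab1, 78 for Ndufb4 and 36 for Ndufs6, so reads of these 3 members may be split.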

How the data were processed

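The authors sequenced poly(A)-selected RNA from 3T3-L1 cells, 3 libraries a group. The submitters' processing notes name HISAT2 2.0.5, featureCounts 1.5.0-p3 and genome build mm10; the annotation release and the strand setting are not given in the sources used here. The authors deposited raw counts per gene and FPKM values (scaled for summed exon length and library size) in a table of the whole series. The members, gene lists and markers were chosen with earlier results of these data known.

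Counts were tested with edgeR 4.0.16 (glmQLFit and glmQLFTest, R 4.3.3, TMM scaling, Benjamini-Hochberg adjustment over every gene that had reads in the 6 libraries under comparison). Called means adjusted p under 0.05, and DEG means called with a change of at least 2-fold. The study used DESeq2, which was run here as an alternative (1.42.0), as were limma 3.58.1 on log2(FPKM + 1) and log2(FPKM + 0.1), other scalings and filters, all 9 libraries in a single fit, the replicate block and leaving out each library. Isoform shares were compared by exact two-sided permutation tests (scipy). The scripts were tested on simulated counts. Intervals and floors (3 counts) cover counting error only.

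Named genes were, per comparison, the 5 largest rises and 5 largest falls among members with a mean of at least 1 CPM, the isoform sets, the core subunits and the Ndufaf genes. Promoter windows were matched through Entrez identifiers. FPKM divides by the summed exon length, so levels of different genes depend on the annotation. Assigned counts of 15880144 to 21806693 a library set the precision. The lysine content of the proteins was not analysed here.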

Additional observations from a re-analysis of the deposited data

How the results depend on the processing

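The median log2 change over the members kept its sign under every alternative run. It ranged from 1.13 to 1.32 for Differentiated against Undifferentiated, from 0.12 to 0.33 for Lysfree against Undifferentiated and from -1.05 to -0.90 for Lysfree against Differentiated. The few members lower in Differentiated depended on the processing: the 2 DEGs became 1 with DESeq2, filterByExpr, and limma on log2(FPKM + 1) or log2(FPKM + 0.1), and 0 with at least 10 counts in every library, and without a library each they were 1 to 2. The 3 members called lower became 1 under that count minimum and with limma at either pseudocount, and 1 to 4 without a library each. For Lysfree against Undifferentiated, limma with a pseudocount of 1 called 20 higher and 9 lower, and with 0.1 it called 22 and 9; without a library each the counts were 22 to 49 higher and 9 to 20 lower. For Lysfree against Differentiated, the 1 DEG higher (Ndufa4l2) became 0 with at least 10 counts in every library, which removes it, and with limma on log2(FPKM + 1). Members called higher were 1 under that count minimum and 1 to 4 without a library each. In that comparison Atp5e was 0.31 and Ndufaf2 0.27 without Lysfree replicate 1, and over the libraries left out they reached -0.28 and -0.19. The Atp5g3 share in Lysfree minus Undifferentiated was 2.34 percentage points by FPKM and -1.49 by counts. Where no cause is named, the cause was not tested. Replicate numbers are shared by the groups, but same-numbered libraries did not deviate together (r from -0.076 to 0.099). With the replicate block, 77 members were called higher and 3 lower in Differentiated, 35 and 18 in Lysfree against Undifferentiated, and 2 and 74 in Lysfree against Differentiated. Of 2181 repeats of single named results, 2056 stayed on their side of the threshold, 97 lost the call and 26 gained one with the same sign. The other 2 went from not called to called with the opposite sign. These were Ndufaf2 and Atp5e in Lysfree against Differentiated, without Lysfree library 1. Lysfree library 1 and 3 libraries a group limit what can be said of small changes in short genes.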
